A study of Homo sapiens with 8 samples.

Results

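The genes described here form the switch that sets phosphorylation of eIF2, the initiation factor that brings the first tRNA to the ribosome. They are its 4 kinases (EIF2AK1, EIF2AK2, EIF2AK3 and EIF2AK4), their shared substrate EIF2S1, the phosphatase regulators PPP1R15A and PPP1R15B, and the mitochondrial relay of OMA1 and DELE1. Their probe sets were those that the platform annotation assigns to exactly 1 gene, that gene being a member, which gave 20 of the 54613 probe sets and all 9 genes, of 19775 genes measured. A further probe set is annotated to both OMA1 and DAB1 and was set aside. Probe sets were assigned by annotation, but the genes themselves were selected on an earlier reading of these arrays, in which signals of the ATF4 response stood higher at 12 h. The values below are therefore a description.

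RNA came from Saos-2, an established human osteosarcoma line labelled p53 null in every group. Cells were treated with a compound labelled Prima for 6 h (3 arrays) or 12 h (2 arrays, replicates 1 and 3), or left untreated (3 arrays), and no dose is given in the sources used here. The study asked how the transcriptome of cells without p53 responds to the compound. Each sample was run on 1 Affymetrix array, whose values are MAS5 signals, a linear brightness summarised over the probes of a probe set.

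Phosphorylation of the alpha subunit of eIF2 slows most protein synthesis while it lets a few mRNAs with upstream reading frames, ATF4 among them, be translated. The kinases answer different stresses: EIF2AK1 (HRI) senses haem shortage and mitochondrial stress, EIF2AK2 (PKR) double-stranded RNA, EIF2AK3 (PERK) unfolded protein in the endoplasmic reticulum, and EIF2AK4 (GCN2) uncharged tRNA. All of these steps act on protein, so the mRNA signals measured here do not show whether a kinase was active.

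The replicate 2 arrays stood apart from the rest. Their median signal was 47.5 at 6 h and 50.9 in untreated cells, against 14.2 to 24.95 on the 6 other arrays, and there is no 12 h array of that number. For ACTB the 3′ probe set over the 5′ one, which grows as RNA is degraded, gave 2.29 for replicate 1 at 12 h, 1.73 for replicate 1 at 6 h and between 1.12 and 1.38 for the others. The same ratio for GAPDH differed little, from 0.927 to 1.04 over all arrays. It was 1.04 for replicate 1 at 12 h and 0.978 for replicate 1 at 6 h. Of the osteoblast-lineage markers 8 of 8 measured passed the brightness filter, which is low and does not by itself show that a gene is expressed. RUNX2, the lineage's transcription factor, ran from 1411 to 2350 over the 3 groups, and SPP1, a dim one, from 14.5 to 94.2. Of 9 measured leukocyte, epithelial and endothelial markers 3 passed that filter, PTPRC, EPCAM and PECAM1. The summed signal of the 9 was 273 to 579 at 6 h, 219.9 to 286 at 12 h and 239.5 to 410.2 in untreated cells, and its part in the results was not tested.

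No gene of the set differed between groups by a margin that passed the test. Each gene was represented by its brightest probe set, and limma was fitted to log2 signal over 12063 genes. At an adjusted p under 0.05 it called 0 of the 9 genes in each of 3 comparisons, 6 h against untreated, 12 h against untreated and 12 h against 6 h. The background was 0% of all genes in each, with 79, 74 and 88 genes at an unadjusted p under 0.05. Over single probe sets it also called 0 of the 18 members that passed the filter, against 0% of 27306 probe sets. At an unadjusted p under 0.05 stood 1, 0 and 0 of the 18, against 0.63%, 0.809% and 0.89% of all probe sets, and 1, 0 and 0 of the 9 genes, against 0.655%, 0.613% and 0.73% of all genes. With no difference between groups a share near 0.05 would be reached. The p-values of this fit, which leaves the replicate number out, were therefore too large and its intervals too wide. Its 0 calls are weak evidence of no change. With the replicate number as a block 493, 262 and 297 genes had an unadjusted p under 0.05, and 0 were called. Each of these counts was also under a share of 0.05 of the 12063 genes. The 0 calls of the blocked fit are therefore weak evidence of no change too. The median log2 difference of the 9 genes was 0.06 at 6 h against a median of 0.02 over all genes, and 0.21 at 12 h against 0.08. The 6 h and 12 h comparisons use the same untreated arrays, so the values of both times are given side by side and not as support for each other. In RNA from a whole culture, a small shift in every cell and a larger one in some of the cells cannot be told apart.

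**Figure D1:**
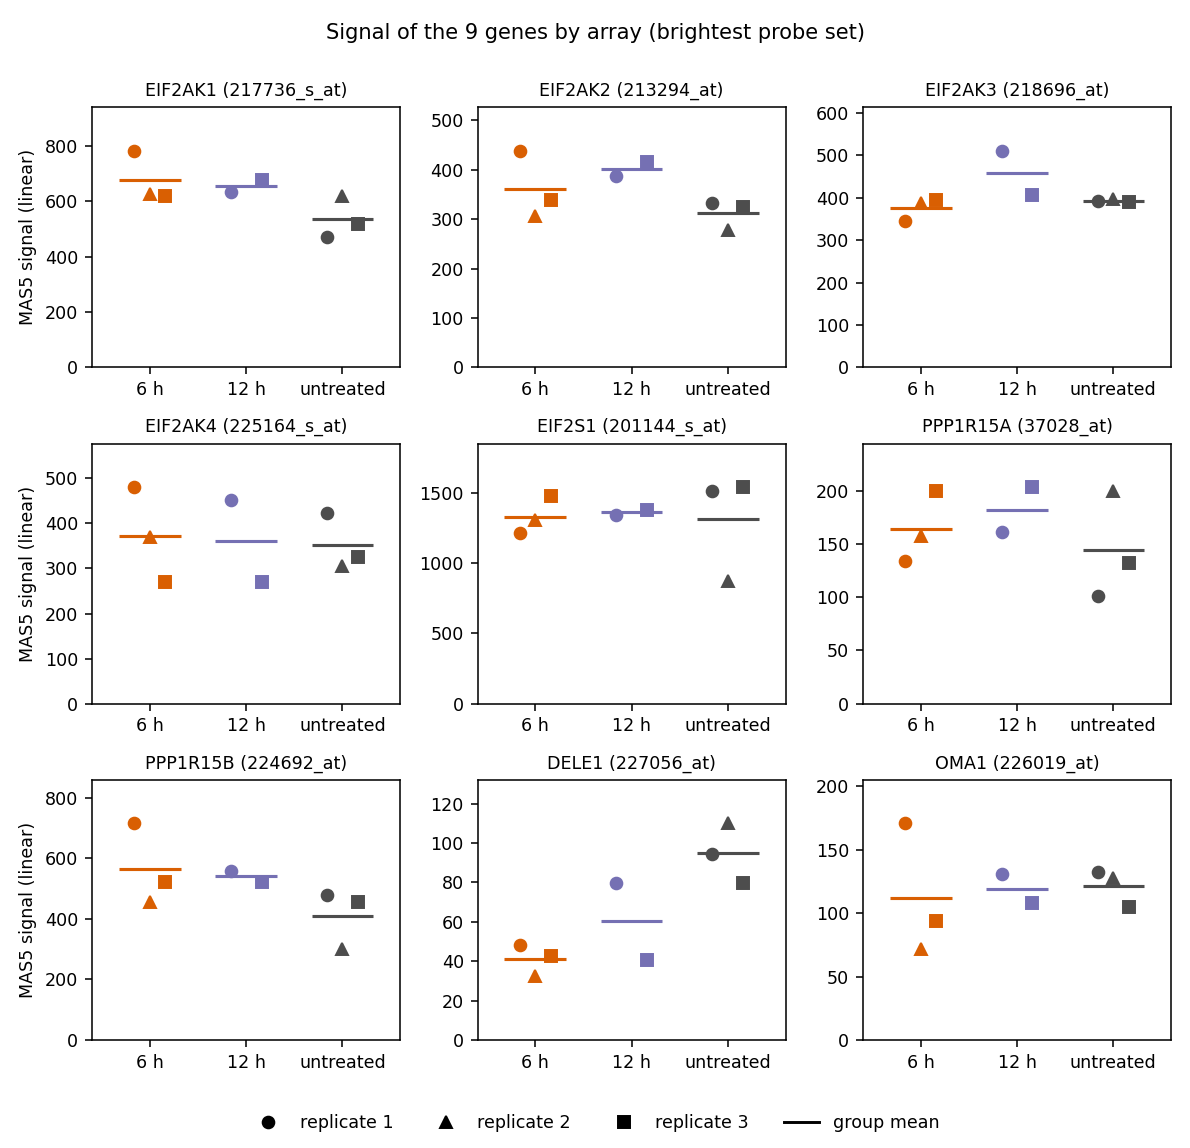
MAS5 signal (linear scale, from 0) of the brightest probe set of each of the 9 genes on the 8 arrays, with 6 h, 12 h and untreated groups from left to right, symbols for the replicate number and a line at the group mean. The 3 DELE1 signals at 6 h lie between 32.4 and 48.1, under the 3 untreated ones, while most other panels overlap or differ narrowly.

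DELE1, the mitochondrial protein that is cut under stress and then binds and activates HRI, had the lowest values relative to untreated cells. Its brightest probe set (227056_at) read 48.1, 32.4 and 42.5 at 6 h and 79.9 and 40.6 at 12 h, against 94.5, 110.1 and 79.9 in untreated cells. All 3 arrays at 6 h lay under every untreated array, whereas at 12 h replicate 3 lay low and replicate 1 was level with the lowest untreated array. The means were 41.0 ± 7.94 (SD, n = 3) at 6 h and 60.2 ± 27.8 (n = 2) at 12 h, against 94.8 ± 15.1 (n = 3) in untreated cells. The log2 difference was -1.22 ± 0.41 (SE; 95% interval -2.11 to -0.32) at 6 h, with an unadjusted p of 0.0115 and an adjusted p of 0.9999 by limma. At 12 h it was -0.72 ± 0.46 (-1.72 to 0.28), and rested on which array was kept, at -1.21 without 12 h replicate 1 and -0.23 without 12 h replicate 3. DELE1 was the 1 member gene that lay below the untreated arrays with no overlap at 6 h, where 1.51% of all genes did, and the 1 member with an unadjusted p under 0.05, where 0.655% of all genes had one.

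The other DELE1 probe sets did not all follow. The second, 201977_s_at, read 33.0, 153 and 50.1 at 6 h and 26.9 and 34.7 at 12 h, against 33.3, 96.7 and 28.2 in untreated cells. Its highest signals fell on the replicate 2 arrays, and its log2 difference at 6 h was 0.49 ± 0.65, opposite in sign to that of the brightest. Another, 201978_s_at, read 19.8, 30.0 and 68.9 at 6 h and 20.7 and 64.3 at 12 h, against 77.4, 66.5 and 64.3 in untreated cells. Its replicate 1 pairs differed most (log2 -1.97 at 6 h and -1.90 at 12 h), the replicate 2 pair at 6 h differed by -1.15, and the replicate 3 pairs were nearly level (0.10 at 6 h and -0.00 at 12 h). The fourth, 238659_at, was too dim for the test, from 0.755 to 15.9 over the 8 arrays. With the log2 signals of all DELE1 probe sets averaged, the 6 h difference was -0.46 ± 0.52 in place of -1.22. Without the replicate 2 arrays it was -0.94 ± 0.42 on the brightest probe set.

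**Figure D2:**
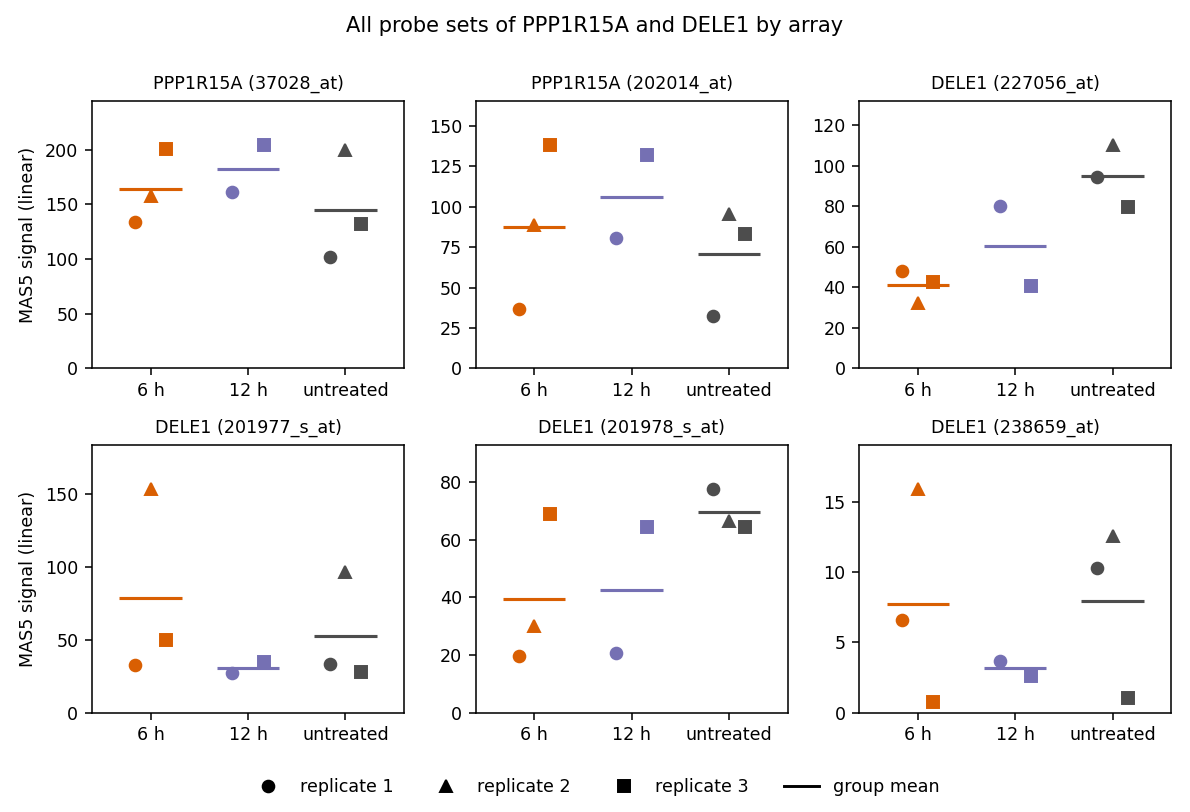
MAS5 signal (linear scale, from 0) of both PPP1R15A and all 4 DELE1 probe sets by array, with 6 h, 12 h and untreated groups from left to right, symbols for the replicate number and a line at the group mean. Both PPP1R15A panels have each 12 h array above the untreated array of the same symbol, while the DELE1 panels differ among themselves.

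OMA1, the inner-membrane metalloprotease that cuts DELE1, read 171, 71.6 and 93.5 at 6 h and 131 and 108 at 12 h, against 133, 127 and 105 in untreated cells (226019_at). The 6 h arrays lay on both sides of the untreated ones and the 12 h arrays among them. Its log2 differences were -0.21 ± 0.35 (-0.97 to 0.55) at 6 h and -0.03 ± 0.39 (-0.88 to 0.82) at 12 h. The probe set shared with DAB1 read 225, 126 and 172 at 6 h and 142 and 204 at 12 h, against 150.2, 70.7 and 168 in untreated cells.

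The kinases differed less. EIF2AK1, the kinase that DELE1 activates, read 782, 627 and 620.0 at 6 h and 633 and 676 at 12 h, against 471, 619 and 517 in untreated cells (217736_s_at). Every treated array lay above every untreated one, but the gap between the nearest arrays, 620.0 at 6 h and 619 in untreated cells, was narrow. Its log2 difference was 0.34 ± 0.23 (-0.16 to 0.83) at 6 h and 0.30 ± 0.26 (-0.26 to 0.85) at 12 h. EIF2AK1 was the 1 member gene above the untreated arrays with no overlap at 6 h, where 2.03% of all genes were. The second probe set, 217735_s_at, overlapped, with 157, 60.6 and 184 at 6 h and 159 and 192 at 12 h, against 106, 89.3 and 162 in untreated cells.

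EIF2AK2, an interferon-induced gene, gave different answers on its probe sets. The brightest, 213294_at, read 439, 307 and 339 at 6 h and 387 and 416 at 12 h, against 333, 278 and 324 in untreated cells, a log2 difference of 0.20 ± 0.25 at 6 h and 0.37 ± 0.27 (-0.22 to 0.96) at 12 h. Both 12 h arrays lay above the untreated ones. On 204211_x_at, a design whose suffix marks probes that can bind other transcripts, signals were 315, 273 and 346 at 6 h and 239 and 377 at 12 h, against 331, 377 and 367 in untreated cells. Those overlapped, with a log2 difference of -0.25 ± 0.30 at 12 h. The dim 242898_at read 17.7 and 28.3 at 12 h against 21.5, 78.0 and 52.6 in untreated cells (log2 -0.99 ± 0.71), so the average over the EIF2AK2 probe sets was -0.29 ± 0.30 at 12 h.

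EIF2AK3, the endoplasmic reticulum kinase, read 345, 389 and 395 at 6 h and 511 and 406 at 12 h, against 392, 396 and 389.9 in untreated cells (218696_at). The untreated arrays lay close together, at 393 ± 3.00 (SD, n = 3). The highest signal was that of replicate 1 at 12 h, whose ACTB ratio was 2.29 and whose GAPDH ratio was 1.04. The log2 difference was -0.06 ± 0.23 (-0.56 to 0.43) at 6 h and 0.21 ± 0.26 (-0.34 to 0.77) at 12 h. Its second probe set, 241463_at, was too dim for the test, with signals of 1.48 to 39.8. With the log2 signals of both probe sets averaged, the difference turned to -0.69 ± 0.57 at 12 h against untreated and to -0.36 ± 0.57 at 12 h against 6 h.

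EIF2AK4, the amino acid sensor, followed the replicate number more than the treatment. It read 481, 369 and 269.6 at 6 h and 453 and 269 at 12 h, against 424, 305 and 325 in untreated cells (225164_s_at), and replicate 1 was highest in each group. The log2 difference was 0.06 ± 0.30 (-0.58 to 0.71) at 6 h and 0.01 ± 0.33 (-0.72 to 0.73) at 12 h. Its second probe set, 237145_at, was dim, with 30.6, 22.7 and 15.4 at 6 h and 52.1 and 24.3 at 12 h, against 10.4, 25.2 and 29.5 in untreated cells.

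**Figure D3:**
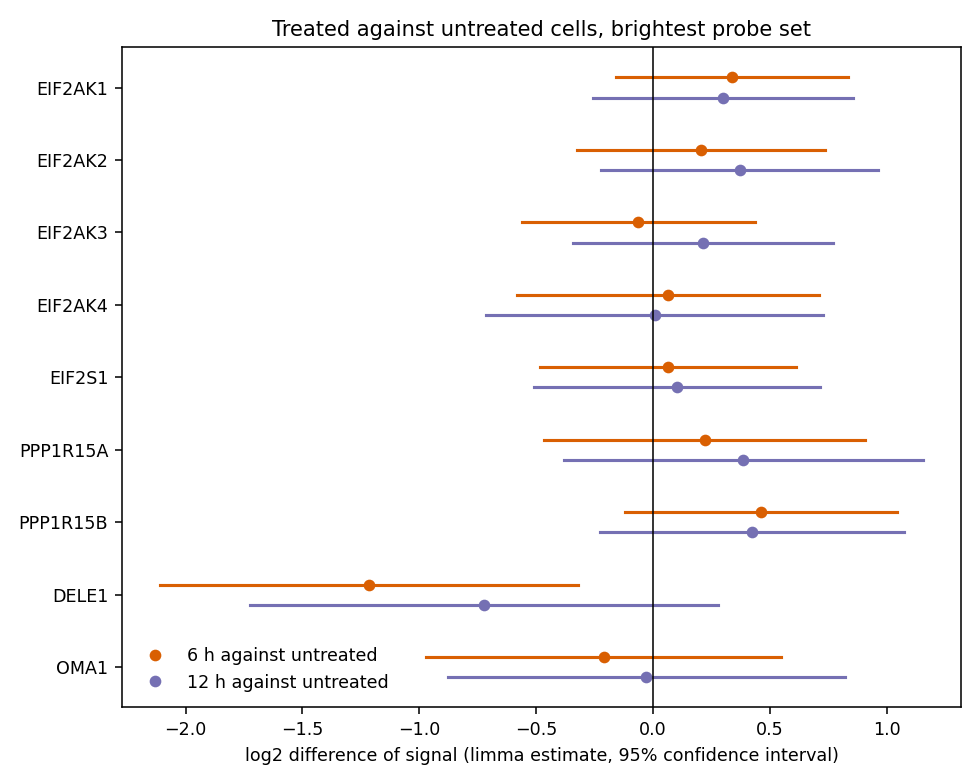
Log2 difference of signal (horizontal axis) for 6 h (upper point) and 12 h (lower point) against untreated cells for each of the 9 genes, from limma on the brightest probe set, with 95% confidence intervals. The interval of DELE1 at 6 h, -2.11 to -0.32, lies below 0 before adjustment and every other interval spans 0. The fit leaves the replicate number out. With that number as a block the PPP1R15B interval at 6 h, 0.11 to 0.81, lies above 0 before adjustment.

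EIF2S1, the alpha subunit that the kinases phosphorylate, was close to level on its brightest probe set (201144_s_at). It read 1215, 1306 and 1477 at 6 h and 1347 and 1382 at 12 h, against 1516, 877 and 1543 in untreated cells, where the replicate 2 array was low. The log2 difference was 0.06 ± 0.25 (-0.48 to 0.61) at 6 h and 0.10 ± 0.28 (-0.51 to 0.71) at 12 h, and without the replicate 2 arrays it was -0.19 ± 0.20 and -0.16 ± 0.20. On 201142_at both 12 h arrays, 632 and 664, lay above the untreated 516, 550.1 and 586 (log2 0.24 ± 0.25). On 201143_s_at the groups overlapped, with 489.6 and 383 at 12 h against 439.5, 417 and 445.

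The phosphatase regulators direct protein phosphatase 1 to eIF2 and so end the response. PPP1R15A (GADD34) is the stress-induced one and a known target of ATF4 and CHOP, whereas PPP1R15B (CReP) is made constitutively. The 250 bases before the start of each gene (RefSeq, GRCh38.p14) are shown because each stretch holds letters that match an ATF-type element. They are printed 5′ to 3′ on the gene's strand with the letters of 1 such match in capitals in each.
PPP1R15A, chr19:48872171-48872420, plus strand: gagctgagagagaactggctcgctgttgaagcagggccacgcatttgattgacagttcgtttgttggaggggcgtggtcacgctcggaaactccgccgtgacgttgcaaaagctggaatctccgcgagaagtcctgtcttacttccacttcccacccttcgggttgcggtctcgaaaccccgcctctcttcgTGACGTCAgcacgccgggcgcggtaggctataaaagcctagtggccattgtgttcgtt
PPP1R15B, chr1:204411818-204412067, minus strand: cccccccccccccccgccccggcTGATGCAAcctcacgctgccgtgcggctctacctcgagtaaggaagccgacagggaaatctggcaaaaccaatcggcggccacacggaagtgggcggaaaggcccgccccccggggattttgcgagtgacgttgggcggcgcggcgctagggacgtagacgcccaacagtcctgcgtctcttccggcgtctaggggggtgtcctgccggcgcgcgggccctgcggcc
In the first the capitals mark a CRE (TGACGTCA), 51 to 58 bases before the start, a motif that 1.65% of 35116 promoters of this length hold on either strand. In the second they mark a C/EBP-ATF element (TGATGNAA), 220 to 227 bases before the start, which 3.14% hold. RefSeq promoters were matched for 8 of the 9 genes, and each of these motifs was found in 1 of them. The core of the interferon-stimulated response element (GAAA, any 2 bases and GAAA, in 3.02% of promoters) was found in 0 of the 8. The search ended at the start of each gene, and the EIF2AK2 sequence stops there in GAAAAC. A match that runs past the start would be missed, so the 0 does not show that EIF2AK2 lacks this element. A CCAAT box (CCAAT, in 32% of promoters) was found in 4, with 4 copies in EIF2AK3. The copy in PPP1R15B, 155 to 159 bases before the start, is left in lower case above. No matches in these promoters shared a base. A match describes the letters only, and no binding was measured.

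PPP1R15A signals at 12 h were above those of the untreated array of the same number on both of its probe sets. The brightest, 37028_at, read 134, 158 and 200.2 at 6 h and 161 and 204 at 12 h, against 101, 199.9 and 132 in untreated cells. Within pairs it was 1.59-fold higher in replicate 1 and 1.54-fold higher in replicate 3 at 12 h, while untreated replicate 2, which has no 12 h partner, was nearly as high as the highest 12 h array. At 6 h the pairs split, at 1.32-fold, 0.79-fold and 1.51-fold for replicates 1, 2 and 3. The groups overlapped at each time. The log2 difference was 0.22 ± 0.32 (-0.47 to 0.91) at 6 h and 0.39 ± 0.36 (-0.38 to 1.15) at 12 h. With all arrays and the replicate number as a block, the 12 h value was 0.51 ± 0.27 (limma, unadjusted p = 0.098). Without the replicate 2 arrays the 6 h and 12 h values were 0.50 ± 0.32 and 0.65 ± 0.32. With those arrays left out and the block added, the 12 h value was 0.65 ± 0.21 (limma, unadjusted p = 0.019). That last setting was chosen after seeing the data, and it called 0 genes after adjustment. In it 391 of 12063 genes had an unadjusted p under 0.05 at 12 h.

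The second PPP1R15A probe set, 202014_at, read 36.6, 88.5 and 138 at 6 h and 80.4 and 132 at 12 h, against 32.7, 95.4 and 83.4 in untreated cells. Its 12 h pairs were 2.46-fold and 1.59-fold higher in replicates 1 and 3. On the brightest probe sets 5 of the 9 genes were higher in both 12 h pairs, where 34% of all genes were. These were EIF2AK1, EIF2AK2, EIF2AK3, PPP1R15A and PPP1R15B. Of these 4, all but PPP1R15A, had no overlap with the untreated arrays, where 9.6% of all genes were higher with none. The gap for EIF2AK3 was narrow, between 406 at 12 h and 396 in untreated cells. Below the untreated arrays with no overlap lay 0 genes of the set, where 4.89% of all genes did. The 2 genes lower in both 12 h pairs were EIF2S1 and DELE1, where 25% of all genes were. For EIF2S1 this held on 201144_s_at only (0.89-fold and 0.90-fold). Its 201142_at was higher in both pairs (1.22-fold and 1.13-fold), and its 201143_s_at was higher in 1 of 2. For EIF2AK2, 204211_x_at was higher in 1 of 2 pairs and 242898_at was lower in both.

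PPP1R15B read 715, 455 and 521 at 6 h and 559 and 520.3 at 12 h, against 477, 299.7 and 455 in untreated cells (224692_at, its single probe set). Each treated array lay above its untreated partner, by 1.50-fold, 1.52-fold and 1.15-fold at 6 h and by 1.17-fold and 1.14-fold at 12 h. The 6 h and untreated groups overlapped between 455 and 477, and both 12 h arrays lay above the untreated ones. The log2 difference was 0.46 ± 0.27 (-0.12 to 1.04) at 6 h and 0.42 ± 0.30 (-0.23 to 1.07) at 12 h. Without the replicate 2 arrays it was 0.39 ± 0.24 and 0.21 ± 0.24. With the replicate number as a block it was 0.46 ± 0.15 (0.11 to 0.81) and 0.25 ± 0.18 (-0.16 to 0.65). After adjustment that fit called 0 genes. On the brightest probe sets 3 of the 9 genes were higher in all 3 pairs at 6 h, where 13.6% of all genes were. These were EIF2AK1, EIF2AK2 and PPP1R15B. DELE1 alone of the 9 was lower in all 3, where 10.4% were. Other probe sets differed. For EIF2AK2, 204211_x_at was lower in all 3 pairs (0.95-fold, 0.72-fold and 0.94-fold). For EIF2AK1, 217735_s_at was higher in 2 of 3, and for DELE1 201977_s_at was also higher in 2 of 3.

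**Figure D4:**
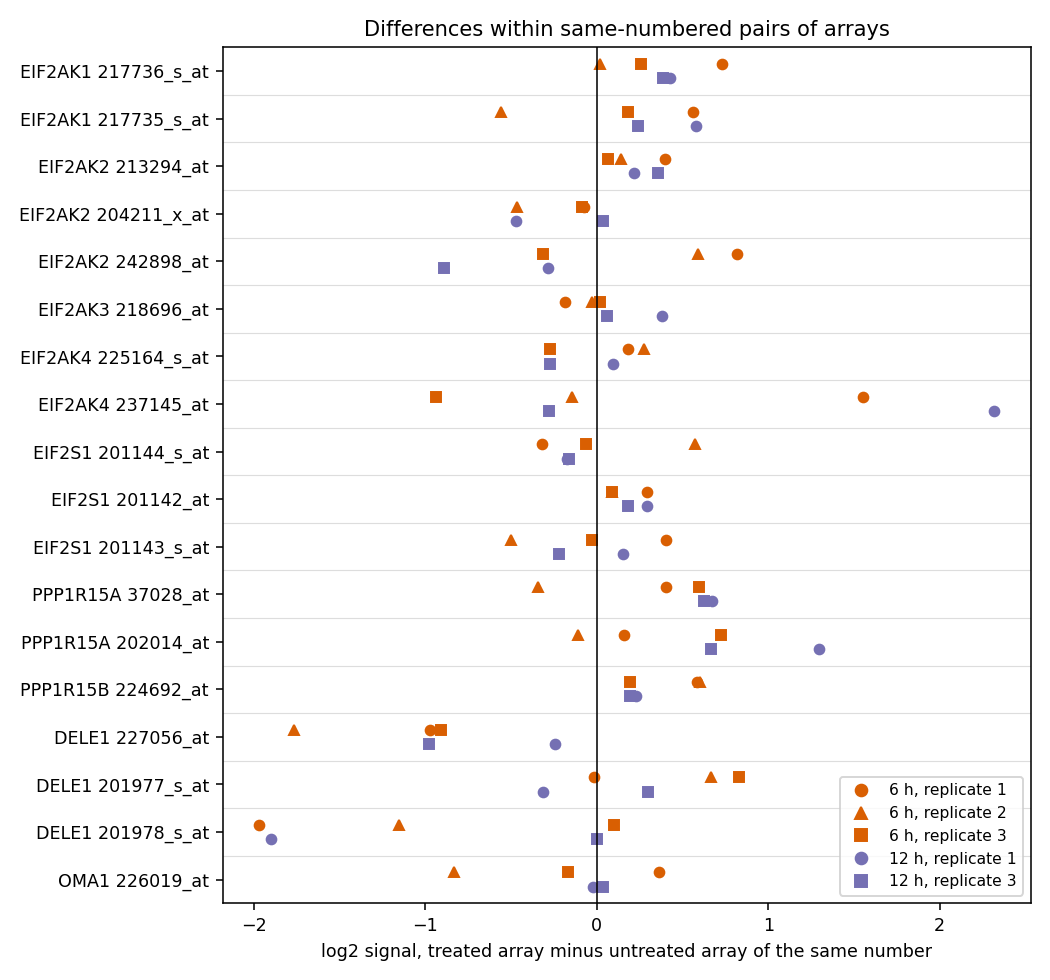
Log2 signal of a treated array minus the untreated array of the same replicate number (horizontal axis) for the 18 member probe sets that passed the filter, with 6 h pairs above and 12 h pairs below in each row and symbols for the replicate number. Both PPP1R15A rows have their 12 h points right of 0 and 6 h points on both sides. The brightest DELE1 row (227056_at) has all its points left of 0. All points lie right of 0 for EIF2AK1 217736_s_at, EIF2AK2 213294_at, EIF2S1 201142_at and PPP1R15B 224692_at. The other rows of DELE1 and EIF2AK2 have points on both sides.

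Between the treatment times the genes differed little. At 12 h against 6 h the log2 difference of EIF2AK3 was 0.28 ± 0.26 (-0.28 to 0.83). It was the 1 member whose 12 h arrays (511 and 406) all lay above the 6 h arrays (345, 389 and 395). Of all genes 7.1% did so and 4.5% lay below. The replicate 3 pair of EIF2AK3 was nearly level (1.03-fold), and the higher 12 h array was replicate 1. Its other probe set, 241463_at, too dim for the test, was lower at 12 h than at 6 h with no overlap. On the brightest probe sets EIF2AK3 and PPP1R15A were higher in both pairs, where 26% of all genes were. EIF2AK4 and PPP1R15B were lower in both, where 23.6% were. The dim 237145_at of EIF2AK4 was higher in both pairs, and 202014_at of PPP1R15A was higher in 1 of 2. DELE1 differed by 0.49 ± 0.46 (-0.51 to 1.49), OMA1 by 0.18 ± 0.39, PPP1R15A by 0.17 ± 0.36 and EIF2AK2 by 0.17 ± 0.27. The values for EIF2AK1, EIF2AK4, EIF2S1 and PPP1R15B lay between -0.06 and 0.04.

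Other genes of the pathway were counted by role, and 0 passed the test in either direction in any list. Of 8 genes for the other eIF2 subunits, for eIF2B (the exchange factor that phosphorylated eIF2 blocks) and for eIF5, 4 were above 0 and 4 below at 12 h (median log2 0.02). EIF2B4, an eIF2B subunit, read 193 and 213 at 12 h against 278, 274 and 240.2 in untreated cells (log2 -0.38 ± 0.30). Of 7 kinase regulators 5 were above 0 (median 0.10), with GCN1, the activator of GCN2, at 0.44 ± 0.32 and HSPA5, the chaperone that holds PERK inactive, at 0.29 ± 0.28. PRKRA, the activator of PKR, stood at -0.26 ± 0.33. The catalytic subunits of protein phosphatase 1 differed by 0.12 ± 0.26 (PPP1CC), -0.11 ± 0.31 (PPP1CA) and 0.03 ± 0.27 (PPP1CB).

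Of 9 tested partners of OMA1 and mitochondrial proteases 6 were above 0 at 12 h (median 0.09). OPA1, the fusion GTPase that OMA1 also cuts, differed by -0.00 ± 0.29, and the protease subunit AFG3L2 by 0.27 ± 0.30. PGAM5, a mitochondrial phosphatase, read 11.5 and 95.3 at 12 h against 54.5, 109 and 90.7 in untreated cells (-1.29 ± 0.71), with the low value on 12 h replicate 1. Of 4 tested interferon-stimulated genes, the class to which EIF2AK2 belongs, 3 were below 0 at 12 h (median -0.28). Among them IFIT1 stood at -0.28 ± 0.56, IFIT3 at -0.29 ± 0.36 and IRF9 at -0.33 ± 0.40, and ISG15 was above 0 at 0.35 ± 0.35.

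Of 10 genes that act downstream of eIF2 phosphorylation 9 were above 0 at 12 h, with a median of 0.54 against 0.08 over all genes, and 8 above 0 at 6 h, with a median of 0.21 against 0.02. This list overlaps the genes whose values led to the set being proposed, and is no independent evidence of direction. ATF4, whose translation eIF2 phosphorylation favours, read 1464 and 1427 at 12 h against 1155, 825 and 1179 in untreated cells (0.48 ± 0.26). ASNS, asparagine synthetase, and SLC7A11, the cystine carrier, differed by 0.70 ± 0.31 and 0.85 ± 0.37. DDIT3 (CHOP), which acts with ATF4 on PPP1R15A, read 94.9, 128 and 111 at 6 h and 52.2 and 91.3 at 12 h, against 64.7, 62.4 and 113 in untreated cells. Its log2 differences were 0.52 ± 0.37 at 6 h and -0.16 ± 0.42 at 12 h.

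**Figure D5:**
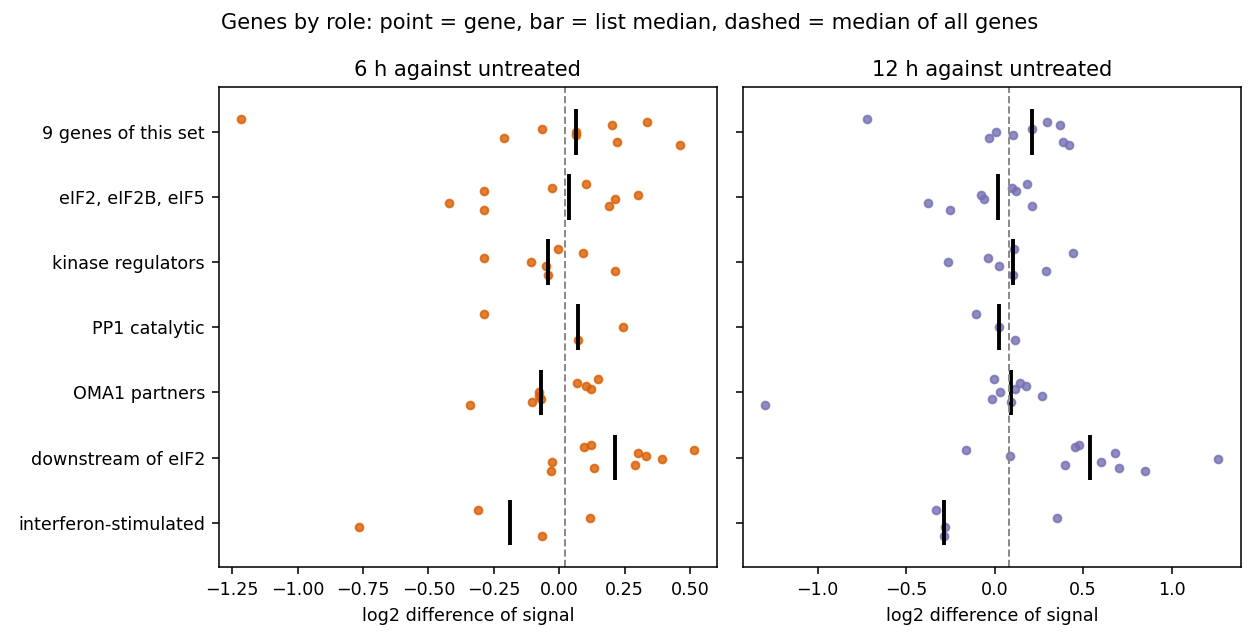
Log2 difference of signal against untreated cells at 6 h (left) and 12 h (right) for the 9 genes of this set and for other genes of the pathway by role, with a point for each gene tested, a bar at the list's median and a dashed line at the median of all 12063 genes (0.02 and 0.08). The downstream genes have a median of 0.54 at 12 h, and DELE1 is the lowest point of the 9 genes in both panels. The horizontal axes differ.

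The genes closest in pattern were sought by Pearson's r over the 8 arrays, after the mean of the arrays with the same replicate number was subtracted, which leaves 5 free values for 12063 candidates. With so few values, high coefficients are given as a description. The closest to PPP1R15A were MSTO1 and PSMA7 (r = 0.993 for each), to DELE1 NFIX (0.987) and SERPINB1 (0.986), and to EIF2AK1 VPS28 (0.994) and SLC36A1 (0.991). For EIF2AK3 they were RCN1 and AKAP1 (both 0.989), and for EIF2AK2 BAG3 (0.987) and ZNF432 (0.980). For PPP1R15B they were SCUBE1 (0.996) and SMYD1 (0.995), for EIF2AK4 ZNF397 (0.996) and MORC3 (0.981), for EIF2S1 VWCE (0.996) and KIF1B (0.995), and for OMA1 IFNAR2 (0.996) and PNLDC1 (0.995).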

How the data were processed

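Each array's file holds an intensity per probe set, not logged, which the authors deposited after MAS5 (per the submitters' processing notes). Version and settings are not given in the sources used here. The 2% trimmed mean was 100.01 on every array, so signals are relative to each array's total. No depth exists for arrays, and their number (3, 2 and 3) limits the precision.

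Groups and replicate numbers came from the titles, and no label says that replicates were grown apart. The p-values therefore cover array-to-array spread, some or all of which may be technical. The members, the gene lists and the tests were chosen with earlier results of these data known. Of 54675 probe sets 62 were controls, 41091 had 1 symbol, 1801 several and 11721 none in the annotation. Signals under the 10th percentile (2.39) were set to it before log2, and features with a mean log2 over the median (4.22, a signal of 18.6) were tested, so 18 of 20 member probe sets. Tests used limma 3.58.1 in R 4.3.3 (lmFit, eBayes with trend, 3 groups in 1 fit, two-sided, Benjamini-Hochberg over all features). All members and their probe sets are reported, and of each other list up to 4 genes, those with the smallest unadjusted p at 12 h or a role tied to a member. MX1, OAS1 and SPG7 were too dim to test.

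Same-numbered arrays deviated together from their group means (r across genes 0.108 to 0.637 in 7 pairs, against -0.576 to 0.333 in 14 others), a part of which is built in since deviations in a group sum to 0, so fits were repeated with the number as a block. Alternatives were quantile normalization, centring, other floors, filters, probe-set averaging, array weights, no variance trend and arrays left out. The scripts were tested on simulated data for the size of the differences only. The simulated arrays had no replicate effect, so that test says nothing on the p-values here.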

Additional observations from a re-analysis of the deposited data

How the results depend on the processing

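All 123 recomputed counts of calls were 0, over 21 alternatives for genes and 20 for probe sets in 3 comparisons each. These included the replicate block and each array left out in turn. The smallest adjusted p by limma was 0.217, and the number at an unadjusted p under 0.05 ran from 33 to 634 genes and from 56 to 1234 probe sets. With the replicate block the count was 0 in each comparison. The 6 h log2 differences of DELE1 and PPP1R15B were -1.22 ± 0.32 and 0.46 ± 0.15 (SE), and that of PPP1R15A at 12 h 0.51 ± 0.27. Their unadjusted p by limma were 0.0049, 0.015 and 0.098.

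Of 564 recomputed member values 524 moved by less than 1 SD within groups. Centring each array on its median accounted for 18 of the 40 others, since it moved the median of all genes at 12 h from 0.08 to 0.66 and every member with it. Averaging the probe sets accounted for 9, quantile normalization for 4 and each 12 h array left out for 4. The sign held under every alternative in 9 of 27 values. These were DELE1, PPP1R15B and EIF2AK1 at both times, PPP1R15A at 12 h, and EIF2AK2 and EIF2AK3 at 6 h. The alternatives reuse the same arrays, and the EIF2AK3 value was near 0 (-0.06, at most -0.003), so a held sign is little support. The DELE1 value at 6 h ran from -1.44 (quantile normalization) to -0.46 (probe sets averaged), and under the filter at the 75th percentile the gene was too dim to test. The PPP1R15A value at 12 h ran from 0.16 without untreated replicate 1 to 0.71 with array weights, centring aside. The number of arrays and the dim DELE1 signals limit what can be seen.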
